A study of Mus musculus with 42 samples.

Results

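Tfeb inactivation on its own in the kidney tubule epithelium was examined at the mRNA level in 3 Tfeb KO and 3 control mice, 6 of the 42 kidneys whose RNA was sequenced in the whole series. The 6 libraries were chosen by their labels alone, as the untreated Tfeb KO and control groups of the KspCre cohort. All mice were kept on a C57BL/6 background and their kidneys were taken at P50. Tfeb KO mice carried KspCre, in which the promoter of kidney-specific cadherin (Cdh16) drives Cre in tubular epithelium, and 2 floxed Tfeb alleles. The controls are labelled wild type, and the study describes the control animals of this cohort as Cre-negative. Which floxed alleles each control mouse carried is not given in the sources used here. The presence of Cre and the loss of Tfeb therefore cannot be told apart in this comparison. RNA came from pieces of whole kidney. Cells in which the Cdh16 promoter is silent (blood vessels, podocytes, immune cells) could therefore contribute unrecombined Tfeb mRNA, which was not measured. The untreated Tsc2 KO and DKO (Tsc2 and Tfeb double knockout) groups and a KspCre cohort given vehicle or rapamycin, 3 libraries per group, were used only for comparison.

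TFEB is a basic helix-loop-helix leucine zipper transcription factor of the MiT/TFE family, together with TFE3, MITF and TFEC. When mTORC1 is active on the lysosome, TFEB is phosphorylated and held in the cytoplasm. When it is dephosphorylated it enters the nucleus and binds an E-box-like sequence, the CLEAR element, near the start sites of lysosomal and autophagy genes. The RagC and RagD GTPases and folliculin are part of the machinery that presents TFEB to mTORC1. Whether the kidney epithelium needs TFEB for its resting lysosomal programme, when Tsc2 is intact and mTORC1 is not constitutively active, is the question this comparison addresses.

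The sequence that TFEB recognises is shown first, because the lysosomal results are read against it. Promoters (250 bases before to 50 after the start site, RefSeq, GRCm38.p6) were matched by symbol for 75 of 96 lysosomal genes and for 11925 of the 16631 genes tested. The core of the CLEAR element, TCACGTGA, reads the same on both strands, and it stood in the promoters of 10 of the 75 lysosomal genes and in 1.98% of all matched genes. The core with a G before it and a C after it stood in 2 of the 75 and in 0.713% of all. The shorter E-box CACGTG, contained in the core, stood in 21 of the 75 and in 11.2% of all. Below are windows from 4 lysosomal promoters picked by hand as examples, those of alpha-galactosidase (Gla), the membrane protein battenin (Cln3), the calcium channel mucolipin 1 (Mcoln1) and cathepsin D (Ctsd), written 5′ to 3′ on the gene's strand with the core in capitals. All bases lie before the start site.
Gla (chrX:134601167-134601226, minus strand): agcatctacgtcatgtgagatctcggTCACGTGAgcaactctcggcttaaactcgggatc
Cln3 (chr7:126583325-126583384, minus strand): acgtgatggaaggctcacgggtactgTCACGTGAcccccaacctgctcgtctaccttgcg
Mcoln1 (chr8:3500447-3500506, plus strand): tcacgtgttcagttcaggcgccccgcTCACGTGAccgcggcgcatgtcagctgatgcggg
Ctsd (chr7:142387893-142387952, minus strand): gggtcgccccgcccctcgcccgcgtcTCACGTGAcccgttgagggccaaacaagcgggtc

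The 6 libraries held 14926050 to 18499062 reads on genes. The Pearson correlation of log2 CPM (counts scaled to library size) was 0.9634 to 0.9743 among the controls, 0.9426 to 0.9662 among the Tfeb KO libraries and 0.9379 to 0.9814 between them. The chi-square statistic between replicates of a group was 26.1 to 78.4 per gene, so no 2 libraries of the same group were copies of each other. Nothing in the labels says more about the replicates than that they are separate samples. Tubular markers were present in all 6, with Umod (uromodulin, thick ascending limb) at 580 to 1181 FPKM and Lrp2 (megalin, proximal tubule) at 67.2 to 168. FPKM is a level scaled by gene length and library size. Only 1 of 9 adrenal markers was abundant enough to be tested. Fat markers differed from piece to piece, with Adipoq (adiponectin) at 45.9, 26.3 and 5.6 FPKM in controls 1, 2 and 3 and at 5.08, 4.95 and 7.65 in the Tfeb KO libraries.

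The control group was not uniform on chromosome 17. Rnps1, a splicing factor gene at chr17:24414675-24425895, was at 6.44, 24.1 and 6.12 FPKM in controls 1, 2 and 3 and at 24.7, 23.7 and 24.7 in the Tfeb KO libraries. Control 2 thus lay with the Tfeb KO libraries and apart from controls 1 and 3. In the 24 libraries of the other KspCre groups Rnps1 was at 4.98 to 9.26, the level of controls 1 and 3. The same order held for Atp6v0c (proton channel subunit of the V-ATPase, chr17:24163866-24169702), at 6.89, 19.0 and 5.46 in the controls, at 32.0, 15.3 and 16.7 in Tfeb KO, and at 2.03 to 6.04 in the 24 others. Glo1 (glyoxalase 1, chr17:30592866-30612659) had the opposite order, with 95.9, 45.7 and 98.3 in the controls, 50.1, 47.6 and 42.9 in Tfeb KO and 54.7 to 114 in the 24 others. A search made after seeing these values, for genes in which controls 1 and 3 stood more than 2-fold above or below the other 4 libraries, returned 16 genes. Of these, 4 were on chromosome 17 between 24163866 and 27563674 (Atp6v0c, Abca3, Rnps1 and Hmga1). Tsc2 itself lies at chr17:24595816-24632630, inside that stretch. The alleles that each control carried there are not known, and whether they differ from those of the Tfeb KO mice was not tested.

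Several of the remaining genes were copies on other chromosomes. Rps2-ps6, a processed pseudogene of Rps2 on chromosome 14, was at 23.7, 0.452 and 23.4 FPKM in the controls and at 0.765, 0.178 and 0.376 in Tfeb KO. Its parent Rps2, at chr17:24718116-24721929, was at 252, 324 and 220 FPKM in the controls and at 414, 536 and 289 in Tfeb KO. The pseudogene Gm13443 on chromosome 2 was at 31.5, 0.929 and 33.9 in the controls and at 0.857, 0.411 and 0.676 in Tfeb KO, and Gm9825 on chromosome 6 at 20.2, 0.0765 and 24.2 against 0, 0.27 and 0.0636. Hmga1b on chromosome 11, a near copy of Hmga1, was at 5.63, 1.11 and 5.54 against 0.878, 0.841 and 1.09. In the 24 other libraries Rps2-ps6 was at 10.04 to 32.2, Gm13443 at 9.93 to 38.8, Gm9825 at 18.4 to 31.8 and Hmga1b at 2.54 to 12.5. Reads on such copies can be assigned to a parent gene or a copy, so their levels are uncertain. One pseudogene followed the groups instead. Gm8730 (chr8:102864845-102865798) was at 4.09, 3.38 and 1.69 FPKM in the controls and at 47.3, 82.2 and 38.7 in Tfeb KO. It was at 1.69 to 5.85 in all 9 KspCre control libraries and above 30 in the knockout libraries, apart from 1 untreated Tsc2 KO library at 3.39.

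**Figure D1:**
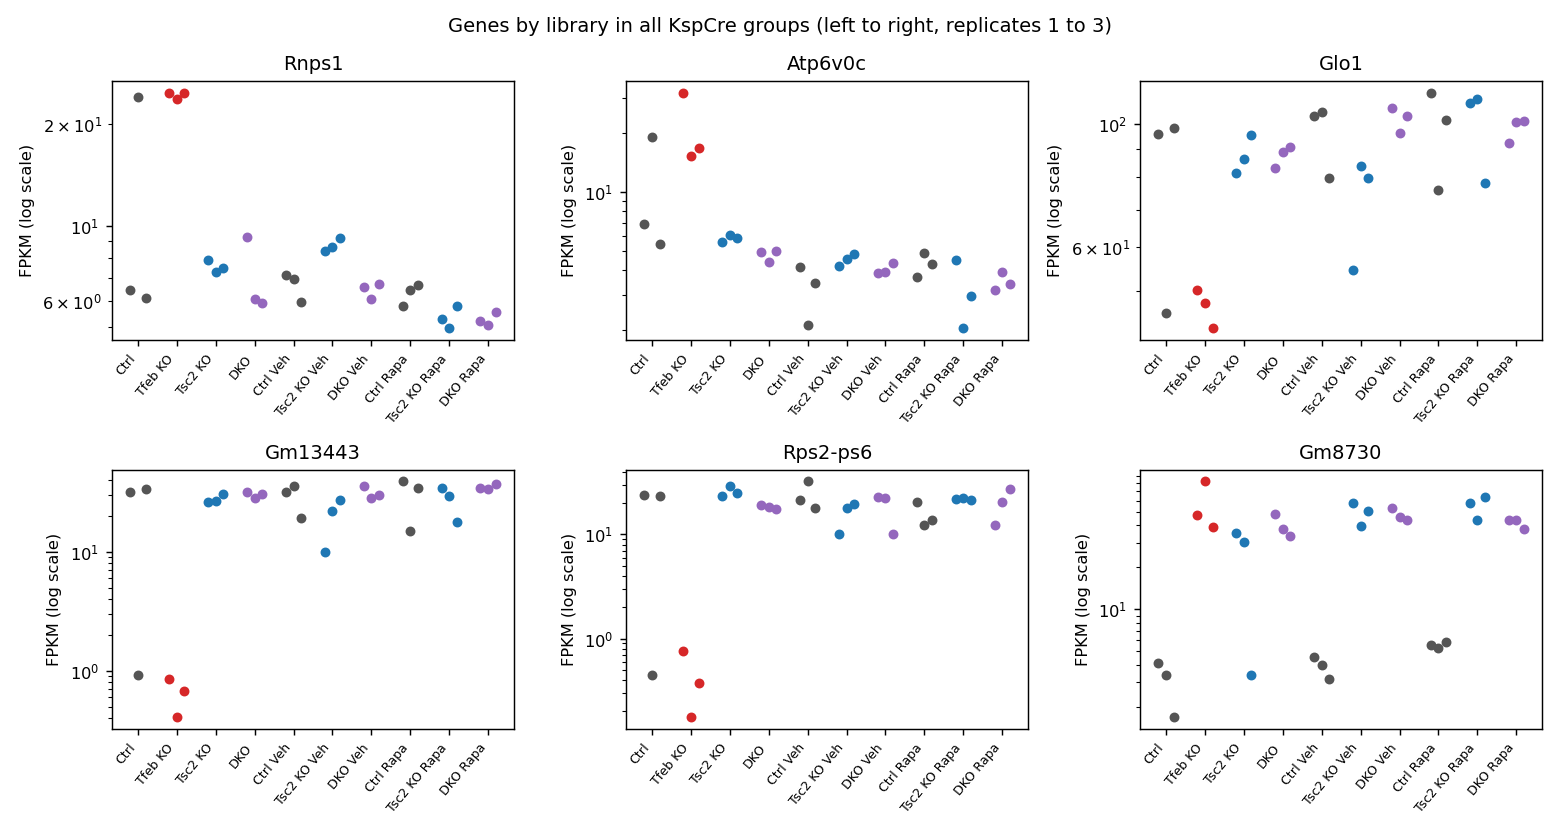
FPKM (log scale) of 6 genes in the 30 KspCre libraries, by group, each point 1 library and replicates 1 to 3 from left to right. For Rnps1, Atp6v0c, Glo1, Gm13443 and Rps2-ps6 control 2 lies with the 3 Tfeb KO libraries (Rnps1 at 24.1 FPKM against 6.44 and 6.12 in the other controls), while Gm8730 is low in all 9 control libraries.

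Tfeb mRNA (ENSMUSG00000023990, chr17:47737030-47792419, GRCm38) was lower in whole kidney of Tfeb KO mice by a margin that did not pass the test. It was at 5.85, 6.05 and 6.24 FPKM in the controls and at 4.32, 4.8 and 5.25 in Tfeb KO. The groups did not overlap, but the highest Tfeb KO library was close to the lowest control. The fitted log2 fold change was -0.33 (SE 0.202, 95% interval -0.78 to 0.11), a level 20.6% lower, and its adjusted p was 0.627 (edgeR, quasi-likelihood). Counts per exon were not used here, so a deleted exon that leaves the rest of the transcript in place was not measured. By qRT-PCR the study reported decreased Tfeb mRNA in whole kidney lysates of the KspCre model, a separate measurement whose values were not used here. In DKO kidneys without treatment Tfeb was at 4.09, 3.08 and 2.65 FPKM, against 3.96, 6.12 and 3.66 in Tsc2 KO, and these groups overlapped. With vehicle it was at 3.18, 2.65 and 2.57 in DKO, at 6.09, 5.98 and 5.58 in Tsc2 KO and at 4.64, 3.89 and 4.7 in controls. The vehicle controls thus lay within or below the range of untreated Tfeb KO, in tables that were normalized separately. The log2 fold change of DKO against Tsc2 KO was -0.48 (SE 0.203, adjusted p = 0.36) in untreated mice, -1.07 (SE 0.185, adjusted p = 0.000667) with vehicle and -0.80 (SE 0.185, adjusted p = 0.0883) with rapamycin. The Tfeb effects with and without Tsc2 in untreated mice differed by -0.14 (95% interval -0.77 to 0.48, adjusted p = 0.881), less than the spread. In bulk RNA, fewer cells of a type and less RNA per cell cannot be told apart.

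Of the other members of the family, Tfe3 and Mitf overlapped between groups and Tfec did not. Tfe3 was at 2.79, 3.12 and 3.05 FPKM in the controls and at 3.1, 2.81 and 3.42 in Tfeb KO (log2 fold change 0.06, 95% interval -0.17 to 0.30). Mitf was at 3.35, 2.46 and 3.78 against 2.42, 3.79 and 3.06 (-0.05, 95% interval -0.45 to 0.35). Tfec, the family member known best from macrophages, was at 2.3, 1.88 and 2.25 against 3.02, 2.8 and 2.57. Its groups did not overlap and its log2 fold change of 0.39 (SE 0.241) had an adjusted p of 0.63. Tsc2, not deleted in these mice, was at 8.77, 9.26 and 8.75 FPKM against 6.86, 7.87 and 9.88, with overlapping groups (-0.12, SE 0.135).

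**Figure D2:**
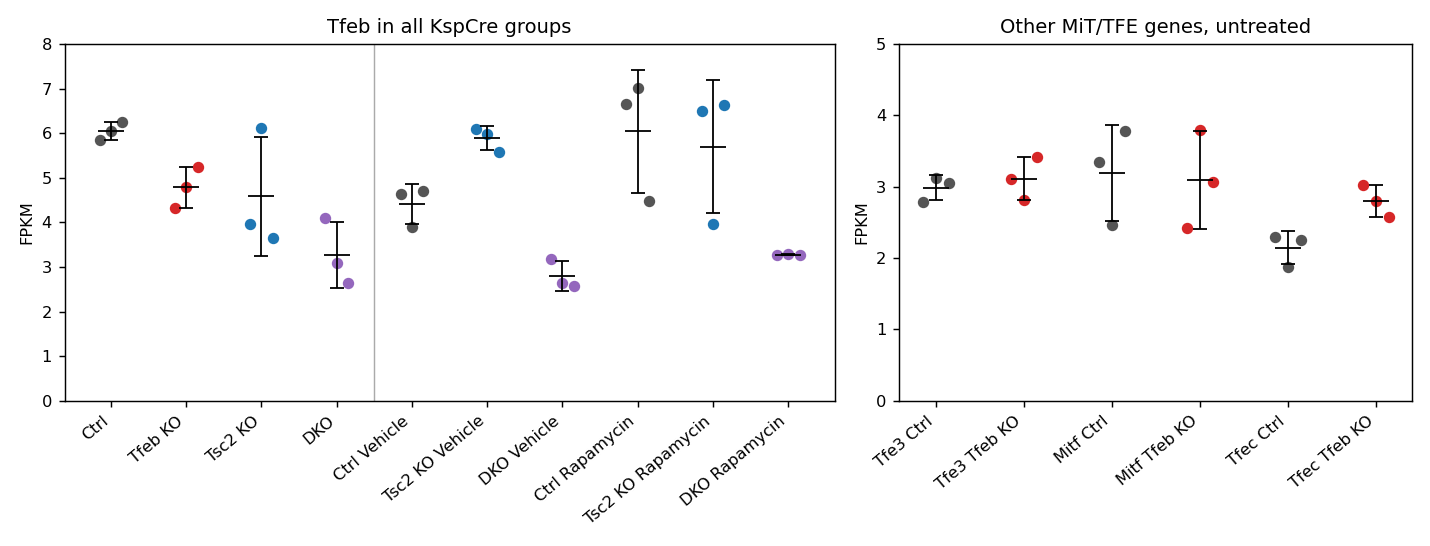
FPKM of Tfeb in the 10 KspCre groups (left; untreated groups before the line, vehicle and rapamycin groups after it) and of Tfe3, Mitf and Tfec in the untreated control and Tfeb KO groups (right). Points are libraries, bars the mean and SD of 3; Tfeb KO lies at 4.32 to 5.25 FPKM for Tfeb, below the controls at 5.85 to 6.24 and above all DKO libraries.

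Across the transcriptome no gene was called. The study's thresholds of 5 FPKM and an adjusted p of 0.05 were used, and the FPKM minimum was applied here to the mean of at least 1 of the 2 groups. edgeR called 0 of 16631 tested genes (0% background), and the lowest adjusted p was 0.582. At an unadjusted p under 0.05 there were 1424 genes (8.56%), 884 of them higher in Tfeb KO (5.32%) and 540 lower (3.25%). The 3 Tfeb KO libraries lay above all 3 controls in 859 genes (5.17%) and below them in 879 (5.29%). At these thresholds large differences also went uncalled, since Gm8730 with a log2 fold change of 4.21 had an edgeR adjusted p of 0.582. Among the 7476 genes that reached 5 FPKM in a group, the unadjusted 95% interval lay within a 2-fold change in either direction for 6397 (85.6%), and its median half-width was 0.361 on the log2 scale. DESeq2 with all 4 untreated groups called 1 gene higher and 6 lower, with only the 2 groups 2 higher and 1 lower, and edgeR without control 2 called 1 higher and 5 lower. Among the genes called by DESeq2 with 4 groups, Gm8730, Gm13443, Rps2-ps6 and Gm9825 are the pseudogenes described above. Natd1 and Eno1b are protein-coding.

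Among genes at 5 FPKM or more whose groups did not overlap, the protein-coding genes with the lowest unadjusted p included the following. Natd1, encoding an acetyltransferase-domain protein, was at 10.04, 10.02 and 11.4 FPKM in the controls and at 7.44, 5.24 and 6.82 in Tfeb KO (log2 fold change -0.69, SE 0.141, edgeR adjusted p = 0.582). The lack of overlap was a condition of the choice, and 5.29% of all genes lay below all controls in this way. Coq9, needed for coenzyme Q synthesis, was at 60.4, 49.3 and 43.6 against 32.7, 29.1 and 37.8 (-0.62, SE 0.148). Ccnd1 (cyclin D1) was at 39.2, 29.5 and 41.7 against 21.3, 23.3 and 29.3 (-0.57, SE 0.169). Eno1b, a gene closely similar to the glycolytic Eno1 whose reads may be shared with it, was at 15.6, 13.5 and 13.4 against 7.85, 7.52 and 9.88 (-0.74, SE 0.156). Further genes on the lower side were Exoc6, Trim32, Hbp1, Ppp1r10, Zfp655 and Ormdl2, with log2 fold changes of -0.60 to -0.45.

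On the higher side 4 of the 12 genes were mitochondrial (mt-Tg, mt-Nd3, mt-Atp8 and mt-Tl2). Ctnnd1 (p120 catenin, which stabilises cadherins at cell junctions) was at 4.4, 5.09 and 4.75 FPKM in the controls and at 8.16, 8.74 and 5.54 in Tfeb KO (log2 fold change 0.66, SE 0.164). Grb14, an adaptor that inhibits the insulin receptor, was at 3.72, 4.42 and 5.23 against 7.24, 7.61 and 5.66 (0.62, SE 0.155). Tfeb KO 1 and 2 stood well clear of the controls for both genes and Tfeb KO 3 stood just above them. Exosc4, Elk4, Tomm5 and Bbip1 had log2 fold changes of 0.46 to 0.51 and Cox6b2 of 1.03. Below the FPKM minimum, DESeq2 with all 4 untreated groups also called genes of low level, among them Hspb2 and Cdca3 (adjusted p of 0.0129 and 0.0214). DESeq2 with only the 2 groups gave them 0.129 and 0.168, so it called neither. Hspb2, a small heat shock protein of muscle, was at 0.461, 0.541 and 0.601 FPKM against 2.78, 3.1 and 1.8 (2.24, SE 0.38). Cdca3, a mitotic regulator, was at 0.425, 0.877 and 0.816 against 2.41, 2.81 and 1.27 (1.61, SE 0.351). Neither gene's groups overlapped.

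Lysosomal genes as a group stayed near control, with a small lean to lower levels. All 96 genes of the KEGG lysosome list that the study tabulated for this cohort were tested and 0 were called. The study showed the list in these same samples, so it is not independent evidence of a direction. The fitted value was below zero for 65 and above zero for 31, against 48.4% of all genes below zero. The median log2 fold change was -0.10, beside 0.01 for all tested genes. At an unadjusted p under 0.05, 7 were lower and 2 higher. The Tfeb KO libraries lay below all controls for 13 of the 96 and above them for 2, against 5.29% and 5.17% of all genes. The 95% interval lay within 1.5-fold for 55 of the 96 and within 2-fold for 85. In single libraries the list median was 0.05, -0.05 and -0.01 in controls 1, 2 and 3, relative to the control mean, and -0.07, -0.10 and -0.09 in Tfeb KO. These are small steps, but each Tfeb KO library lay below each control. Without Tfeb KO 3 the list had 17 genes lower and 7 higher at an unadjusted p under 0.05, and without control 3 it had 1 and 1. All genes moved as well, to 1491 lower and 1787 higher of 17118 without Tfeb KO 3 and to 459 and 635 of 17119 without control 3.

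Among the proteases of the lysosomal lumen, 10 of 14 had a value below zero and none passed an unadjusted p of 0.05. Lgmn (legumain, a cysteine protease abundant in proximal tubule) was at 394, 365 and 362 FPKM in the controls and at 297, 308 and 306 in Tfeb KO (log2 fold change -0.30, SE 0.205), without overlap. Tpp1 (tripeptidyl peptidase 1) was at 51.8, 50.4 and 54.0 against 48.1, 42.3 and 43.2 (-0.22, SE 0.129), also without overlap. Ctsf (cathepsin F) had a value of -0.34 with overlapping groups, and Napsa (napsin A) of 0.35, which was -0.03 without Tfeb KO 2.

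Of the glycosidases and sulfatases 17 of 23 were below zero (median -0.20, and -0.11 without control 1). Gusb (beta-glucuronidase) was at 6.34, 6.61 and 6.02 FPKM in the controls and at 3.41, 3.69 and 5.83 in Tfeb KO (log2 fold change -0.54, SE 0.179). Arsb (arylsulfatase B, which degrades dermatan sulfate) was at 12.9, 9.14 and 11.1 against 4.95, 4.24 and 8.38 (-0.91, SE 0.378). For both genes Tfeb KO 1 and 2 were lowest and Tfeb KO 3 was just below the controls. Galc (galactosylceramidase) had a value of -0.43 with overlapping groups. Gla went the other way, at 1.77, 2.37 and 2.03 FPKM against 3.95, 3.28 and 2.53 (0.66, SE 0.202). These 4 genes passed an unadjusted p of 0.05, and the edgeR adjusted p was 0.582 for each. The 3 lower genes and 1 higher gene at that unadjusted p became 1 and 1 without control 1 or control 3. They became 5 and 2 without Tfeb KO 1 or Tfeb KO 3. Of the 4 genes whose promoter windows are printed above, Gla and Cln3 had values above zero (0.66 and 0.20) and Mcoln1 and Ctsd below it (-0.12 and -0.02).

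Of the 12 lipid hydrolases, phosphatases and activators, 10 were below zero (median -0.22, and -0.14 without control 1). Acp2 (lysosomal acid phosphatase) was at 7.78, 7.37 and 8.24 FPKM against 5.76, 5.8 and 6.94 (-0.33, SE 0.123). Lipa (lysosomal acid lipase) was at 120, 79.2 and 74.1 against 52.8, 56.5 and 73.98 (-0.57, SE 0.354), with control 3 and Tfeb KO 3 level. Smpd1 (acid sphingomyelinase) had a value of -0.24 and Ppt1 (palmitoyl-protein thioesterase 1) of -0.22, both with overlapping groups, and Pla2g15 of 0.36. Of the 15 membrane proteins, 9 were below zero and none passed an unadjusted p of 0.05. Lamp1, an abundant glycoprotein of the lysosomal membrane, was at 507, 421 and 456 FPKM in the controls and at 349, 413 and 403 in Tfeb KO (-0.25, SE 0.152), just without overlap. Cd63 (a tetraspanin) was at 240, 235 and 209 against 326, 337 and 211 (0.36, SE 0.168).

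The V-ATPase acidifies the lysosome. Of its 10 subunits in the list, 5 were above and 5 below zero (median -0.03, and 0.04 without Tfeb KO 2). Atp6v0c had the largest value in the whole list, 1.03 (SE 0.408), but control 2 lay inside the Tfeb KO range, as given above. Atp6v0a4, the subunit of intercalated cells, was at 77.4, 59.8 and 52.3 FPKM against 32.2, 56.5 and 59.2 (-0.35, SE 0.236). Of the 22 genes for enzyme sorting and coat adaptors, 14 were below zero and 3 of these passed an unadjusted p of 0.05, though 0 did without control 1, control 3, Tfeb KO 1 or Tfeb KO 2, with the gene length offset, or in edgeR with only the 2 groups. Those were Gnptab (which tags enzymes with mannose 6-phosphate, -0.35), Gga2 (a Golgi sorting adaptor, -0.33) and Ap3d1 (a subunit of the AP-3 coat, -0.26).

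The values of lysosomal genes with and without these motifs were set side by side, without a test. The 10 lysosomal genes with TCACGTGA in the promoter had a median of 0.02 (log2 fold change) and 5 of them were below zero, and the 65 matched lysosomal genes without it had a median of -0.12. For the E-box CACGTG the medians were -0.12 in the 21 lysosomal genes with it, 15 of them below zero, and -0.10 in those without it. Over all matched genes the medians were -0.00 with the core and 0.01 without it, and -0.02 and 0.01 for the E-box. A match is a description of the letters in this window and says nothing of binding.

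**Figure D3:**
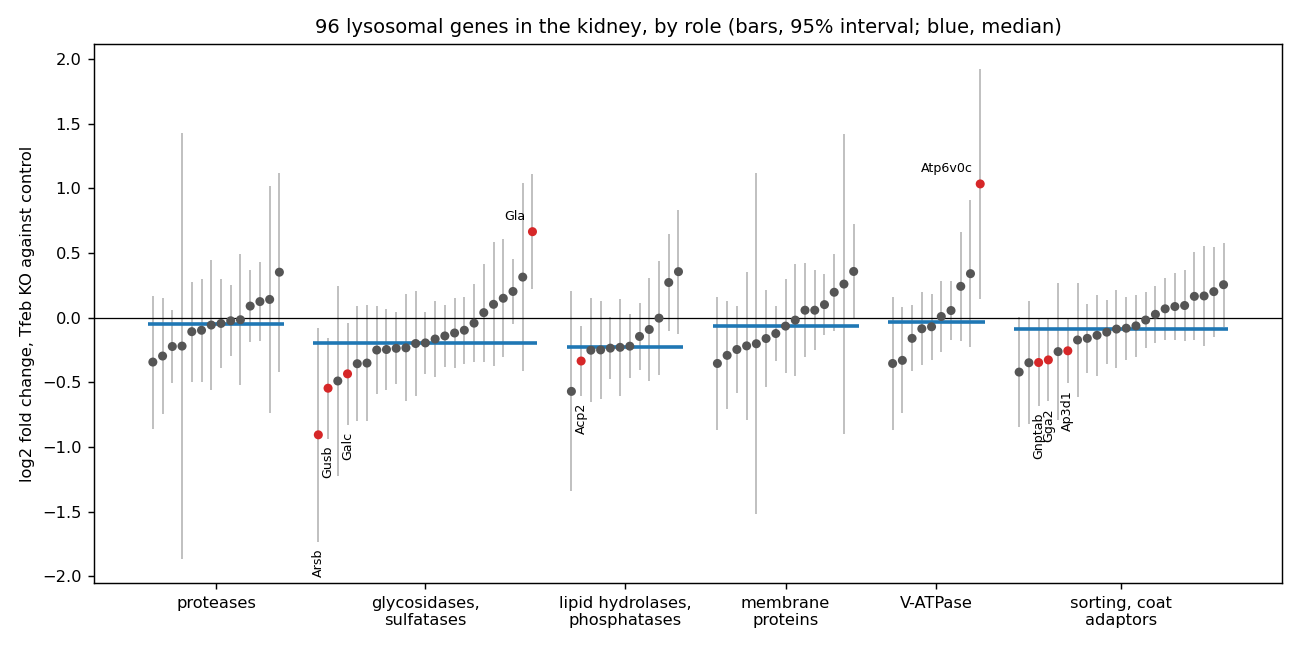
Fitted log2 fold change (Tfeb KO against control) of the 96 lysosomal genes, by role, with 95% intervals; red points have an unadjusted p under 0.05 and are named, blue lines are the median of each role. Most intervals include zero, 65 points lie below it and 31 above, and Gla and Atp6v0c are the 2 red points on the higher side.

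Genes around the TFEB-mTORC1 loop had small values. Of 12 genes for the Rag GTPases, Ragulator and folliculin, none was called. Rragc (RagC) was at 25.7, 22.3 and 22.7 FPKM in the controls and at 21.4, 24.7 and 24.6 in Tfeb KO, with a log2 fold change of 0.00 (95% interval -0.23 to 0.23). Rragd (RagD) was at 12.9, 10.9 and 17.1 against 11.4, 10.4 and 13.3 (-0.21, 95% interval -0.61 to 0.19). Lamtor1 was at 19.6, 18.8 and 21.3 against 23.96, 21.1 and 18.7 (0.10, 95% interval -0.15 to 0.34). Flcn (folliculin) was at 10.5, 9.7 and 8.09 against 8.93, 7.42 and 7.4 (-0.25, SE 0.125). Lamtor2 and Lamtor4, small scaffold subunits of Ragulator, passed an unadjusted p of 0.05, with values of 0.37 and 0.42. Both were near 75 FPKM in Tfeb KO 1 and 2 and at the control level in Tfeb KO 3. The 2 higher genes of this list became 0 without control 3, Tfeb KO 1 or Tfeb KO 2. They also became 0 in edgeR with only the 2 groups, and 1 without control 1. In the list of the TSC complex and mTORC1, 8 of 12 were below zero and Tsc1 passed an unadjusted p of 0.05 (-0.31). No gene of that list passed with RLE, the length offset, DESeq2 with 4 groups, edgeR with 2 groups or the replicate block. None passed without control 1, Tfeb KO 1 or Tfeb KO 2 either, and without control 1 the split was 6 and 6. Without control 2, however, 3 lower genes passed. Without Tfeb KO 3, 4 lower genes and 1 higher gene passed, and the list median was -0.20 in place of -0.09.

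Autophagy genes stayed close to control. Of 31 genes for the machinery and its receptors, 18 were below and 13 above zero. The median was -0.04 (0.02 without control 1, with 13 below zero). None passed an unadjusted p of 0.05, and the 95% interval lay within 1.5-fold for 26. At that p 4 higher and 3 lower genes passed without Tfeb KO 3, and 2 higher genes without control 2. Atg9a, the lipid scramblase of the forming autophagosome, was at 6.43, 4.78 and 5.17 FPKM against 2.46, 3.38 and 5.4 (-0.54, SE 0.257). Of 14 tested genes described as TFEB or TFE3 targets outside the lysosomal list, 8 were below zero and Uap1l1 passed an unadjusted p of 0.05. It was at 24.1, 25.7 and 28.2 FPKM in the controls and at 22.1, 21.3 and 18.7 in Tfeb KO (-0.32, SE 0.112). Ppargc1a (PGC-1alpha, a coactivator of mitochondrial biogenesis) had a value of -0.23 with overlapping groups. Gpnmb, a melanosomal and lysosomal glycoprotein used as a reporter of MiT/TFE activity, was at 0.0393, 0.0297 and 0.0171 FPKM in the controls and at 0.0365, 0.0117 and 0.0329 in Tfeb KO, close to zero in all 6. Mthfd2, a mitochondrial one-carbon enzyme, was at 1.16, 1.7 and 1.09 against 1.98, 1.5 and 1.51 (0.34, SE 0.236).

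Transcripts of the mitochondrial genome and of ribosomal proteins were higher together in Tfeb KO 1 and 2, and not in Tfeb KO 3. All 13 protein-coding mitochondrial genes had a value above zero (median 0.69) and 8 had an unadjusted p under 0.05, with 0 called. Without Tfeb KO 1 the median was 0.35 and 3 genes passed, without control 1 these were 0.57 and 2, and without Tfeb KO 3 they were 0.94 and 13. mt-Nd3 (complex I) was at 291, 328 and 287 FPKM in the controls and at 926, 615 and 357 in Tfeb KO (log2 fold change 1.07, SE 0.259). mt-Cytb (complex III) was at 16420, 21390 and 19530 against 41540, 30160 and 18570 (0.66, SE 0.273). mt-Nd4 (complex I) was at 6339, 8362 and 7813 against 17860, 11540 and 7642 (0.72, SE 0.274). In each of these 3 genes Tfeb KO 1 was highest and Tfeb KO 2 second, while Tfeb KO 3 was inside the control range for mt-Cytb and mt-Nd4. The mitochondrial genome took 10.1%, 13.8% and 11.8% of reads on genes in the controls and 20.5%, 16.9% and 12.2% in Tfeb KO. The exact two-sided permutation p of that share was 0.2, where 0.1 is the smallest that 3 against 3 allows. In the 24 other KspCre libraries it was 5.03% to 12.4%, so 2 Tfeb KO libraries and control 2 were above all of them.

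Of 78 ribosomal protein genes, a list made by symbol after seeing the data, 77 had a value above zero (median 0.47) and 37 had an unadjusted p under 0.05. Rpl23 was at 81.8, 97.6 and 92.7 FPKM in the controls and at 148, 212 and 101 in Tfeb KO (0.76, SE 0.218). Rpl14 was at 125, 144 and 134 against 209, 278 and 148 (0.66, SE 0.198). The median of the 78 genes relative to the control mean was 0.40 in Tfeb KO 1, 0.87 in Tfeb KO 2 and -0.02 in Tfeb KO 3. Without Tfeb KO 2 the list's median was 0.19 and 3 genes had an unadjusted p under 0.05, and without Tfeb KO 3 these were 0.66 and 61. Nuclear genes of the respiratory chain were less uniform, with 13 of 23 above zero (median 0.05) and 5 at an unadjusted p under 0.05. Without Tfeb KO 2 the median was -0.02 and 1 passed. Leaving out control 3 gave 0.01 and 1, and leaving out Tfeb KO 1 gave 0.04 and 0. With Tfeb KO 3 left out, 9 higher and 2 lower genes passed (median 0.13). With control 1 left out, 3 passed (median 0.13). Cox6c (complex IV) was at 112, 128 and 115 FPKM against 184, 192 and 118 (0.48, SE 0.17). Ndufa1 and Ndufa2 (complex I) and Cox5b (complex IV) had the same order, with Tfeb KO 3 at or near the control level.

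Gene length moved with these differences. The tested genes were cut into 8 bins of equal size by the gene length deposited with the counts. The median log2 fold change was 0.25 in the shortest bin (57 to 1454 bases) and -0.12 in the longest (8541 to 123179 bases). In the fifth bin it was -0.00. In single libraries the shortest bin lay at 0.30 and 0.42 above the control mean in Tfeb KO 1 and 2 and at -0.04 in Tfeb KO 3, while the controls were between -0.03 and 0.06. Ribosomal protein and many respiratory transcripts are short. With an offset for gene length fitted in each library, the median of the ribosomal protein genes was 0.31 in place of 0.47, that of the mitochondrial genome 0.44 in place of 0.69 and that of the lysosomal list -0.10 as before. At an unadjusted p under 0.05 there were then 23 ribosomal protein genes in place of 37, 2 mitochondrial genes in place of 8 and 0 genes of the Rag, Ragulator and folliculin list in place of 2. The nuclear respiratory list had a median of -0.02 with 1 such gene in place of 0.05 with 5. The part of RNA quality in these results was not tested.

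**Figure D4:**
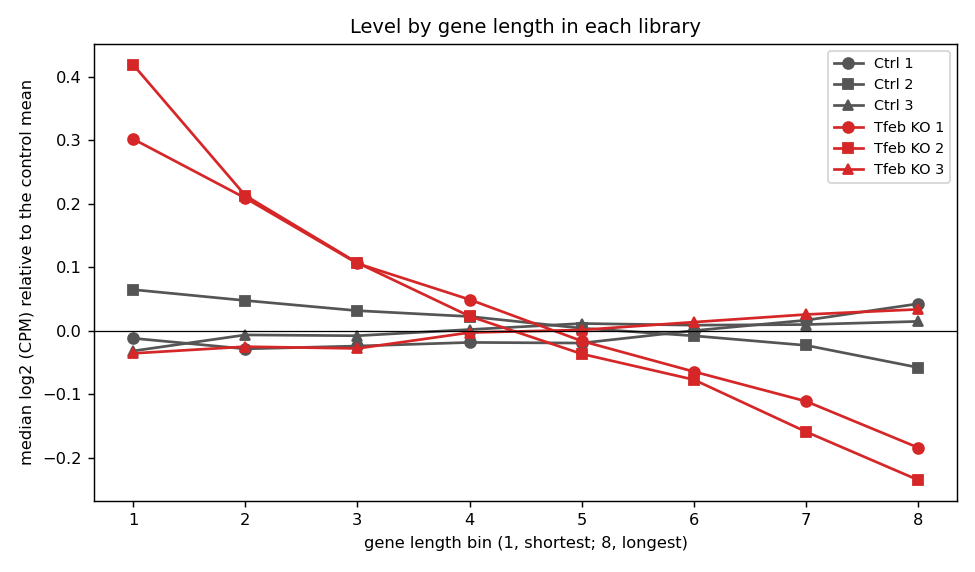
Median log2 CPM, relative to the control mean, of genes in 8 bins of deposited gene length in each of the 6 libraries. Tfeb KO 1 and 2 slope from 0.30 and 0.42 in the shortest bin to -0.18 and -0.24 in the longest, and Tfeb KO 3 follows the controls.

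edgeR and DESeq2 called 0 genes of the lists of fatty acid synthesis and oxidation. Of 18 genes of sterol and fatty acid synthesis, 16 had a value below zero (median -0.38) and 2 had an unadjusted p under 0.05 (1 to 5 with 1 library left out). Acly (ATP citrate lyase, the source of cytosolic acetyl-CoA) was at 69.4, 36.6 and 49.97 FPKM in the controls and at 24.7, 18.8 and 34.9 in Tfeb KO (log2 fold change -0.99, SE 0.341, edgeR adjusted p = 0.582). Sqle (squalene epoxidase) was at 11.4, 10.2 and 13.1 against 7.78, 9.73 and 9.24 (-0.37, SE 0.142). Both had no overlap between groups. Fasn (fatty acid synthase) was at 173, 24.3 and 12.1 against 9.36, 9.47 and 21.5, so its value of -2.36 rested on control 1. Control 1 also had the highest fat markers, as given for Adipoq. All 8 fat markers had a value below zero (median -1.99, 0 at an unadjusted p under 0.05). Their summed level was 106 to 572 FPKM in the controls and 79.4 to 120 in Tfeb KO. At that p 6 of the 8 passed in edgeR with only the 2 groups, 2 without the filter and 1 without control 3. The part of adherent fat in the synthesis genes was not tested, and without control 1 the median of the synthesis list was -0.34. Of 18 genes of fatty acid oxidation, 12 were below zero (median -0.25), but without control 1 the median was 0.04, 8 were below zero and none had an unadjusted p under 0.05, so the direction rested on that library. Acadvl (very long chain acyl-CoA dehydrogenase) was at 69.3, 50.5 and 45.4 FPKM against 28.1, 39.5 and 42.8 (-0.58, SE 0.223).

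Hspa5 and Hsp90b1, which encode chaperones of the endoplasmic reticulum, were lowest in Tfeb KO 2. Hspa5 (BiP) was at 153, 130 and 131 FPKM in the controls and at 111, 66.8 and 91.8 in Tfeb KO (log2 fold change -0.61, SE 0.217), without overlap. Hsp90b1 (GRP94) was at 86.3, 100 and 92.0 against 89.2, 48.3 and 63.4 (-0.47, SE 0.206). Of the 13 genes of the heat shock and endoplasmic reticulum stress list, which also holds cytosolic chaperones, 11 were below zero (median -0.19, and -0.43 without Tfeb KO 1), and the 2 at an unadjusted p under 0.05 became 0 without Tfeb KO 2 and 4 without Tfeb KO 1. Of 16 immediate early genes 12 were below zero, 3 of them at an unadjusted p under 0.05, and 1 of the 4 above zero (Jund) also passed. Without control 2 or without Tfeb KO 2, 9 were below zero and 0 of these passed. Fos was at 0.898, 3.65 and 0.473 FPKM against 0.607, 0.323 and 0.524, and its value of -1.77 rested on control 2. Jun was at 27.9, 23.2 and 9.84 against 11.7, 9.65 and 14.4 (-0.76, SE 0.318), where control 3 was inside the Tfeb KO range. Of 12 genes of the list of Klotho, vitamin D and calcium handling, 8 were below zero (median -0.15). Only 1 of the 12 had an unadjusted p under 0.05, near the 8.56% of all genes. That gene, S100g (calbindin D9k, a calcium-binding protein of the distal nephron), was above zero (0.92, SE 0.255). It was at 1627, 1648 and 1218 FPKM in the controls and at 2292, 4020 and 2190 in Tfeb KO. Every Tfeb KO library lay above every control. Kl (Klotho) was at 91.4, 87.4 and 98.2 against 71.6, 64.6 and 79.6 (-0.36, SE 0.188), without overlap.

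Proliferation genes were mostly at low levels. Of 12 genes, 11 had a value above zero (median 0.73), 4 had an unadjusted p under 0.05 and none was called. The list median relative to the control mean was -0.40, 0.65 and -0.02 in controls 1, 2 and 3 and 1.06, 0.79 and 0.01 in Tfeb KO 1, 2 and 3, so Tfeb KO 3 lay below control 2. Leaving out 1 library gave list medians of 0.49 (without Tfeb KO 1) to 1.14 (without control 2). The 4 genes at an unadjusted p under 0.05 became 1 without control 1, control 3 or Tfeb KO 1, 2 without Tfeb KO 2 and 7 without Tfeb KO 3. Aurkb (Aurora kinase B, mitotic spindle) was at 0.109, 0.263 and 0.0945 FPKM in the controls and at 0.808, 0.619 and 0.582 in Tfeb KO (log2 fold change 2.11, SE 0.566). Mki67 (Ki-67, a marker of cycling cells) was at 0.216, 0.628 and 0.487 against 1.3, 0.838 and 0.506 (0.98, SE 0.418). Ccnb2 (cyclin B2) was at 0.0836, 1.22 and 0.4 against 2.49, 1.69 and 1.16 (1.64, SE 0.664). Plk1 was at 0.291, 0.528 and 0.506 against 1.41, 0.829 and 0.609 (1.10, SE 0.495). Aurkb and Plk1 had no overlap between groups, whereas control 2 reached the Tfeb KO range for Ccnb2 and Mki67. Summed red cell markers were highest in Tfeb KO 1 and B cell markers in Tfeb KO 2, the libraries with the highest proliferation medians. The other libraries did not follow the order of the proliferation medians. The 7 red cell genes summed to 141 to 517 FPKM in the controls and to 1356, 227 and 133 in Tfeb KO 1, 2 and 3, and the 8 B cell genes to 52.8 to 119 against 65.8 to 343. Their part in the proliferation values was not tested.

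The tubule segments are described by their markers, and differences between segments were not tested. Cdh16, the gene whose promoter drives the Cre, was at 359, 358 and 427 FPKM in the controls and at 318, 243 and 331 in Tfeb KO (log2 fold change -0.35, SE 0.153), without overlap. Umod was at 1077, 1112 and 1181 against 958, 580 and 1023 (-0.39, SE 0.254), also without overlap. Of the 12 genes of the thick ascending limb and distal convoluted tubule, 10 were below zero (median -0.16). That rested on Tfeb KO 2, since without it the median was 0.00 with 5 below zero, and the list median relative to the control mean was -0.61 in Tfeb KO 2 and 0.22 in Tfeb KO 3. Of 16 proximal tubule genes, 13 were below zero (median -0.28), although none of these 13 had an unadjusted p under 0.05 in the main edgeR fit. Lower genes at that p numbered 3 in edgeR with only the 2 groups, 3 without the filter and 2 in DESeq2 with 4 groups. There was 1 without Tfeb KO 1 or Tfeb KO 3. Without control 1 the median was -0.16 with 10 below zero. Slc5a2 (SGLT2, glucose uptake) was at 112, 149 and 111 against 84.5, 57.9 and 84.2 (-0.71, SE 0.425), and Slc5a12 (a lactate transporter) at 71.1, 36.5 and 38.9 against 25.1, 27.8 and 25.4 (-0.90, SE 0.48). Both were lower in every Tfeb KO library. Slc7a13, an amino acid transporter of the late proximal tubule, was at 35.3 FPKM in Tfeb KO 2 and at 0.225 to 1.11 in the other 5 libraries, and its value of 3.78 became -0.83 without that library. Of collecting duct markers, 5 of 8 principal cell genes (median 0.17, and 0.05 without Tfeb KO 2 or 0.08 without control 2) and 5 of 9 intercalated cell genes (median 0.10, and -0.00 without Tfeb KO 3) were above zero, near the 51.6% of all genes. Podocyte, endothelial and macrophage markers had list medians of -0.07, 0.07 and -0.11, with 0 genes at an unadjusted p under 0.05 in each, and each of these 3 medians changed sign when a single library was left out. Of 8 fibroblast genes 7 were below zero (median -0.42, 1 at an unadjusted p under 0.05), with Tfeb KO 2 at -1.39 relative to the control mean, and the median was -0.13 without that library.

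**Figure D5:**
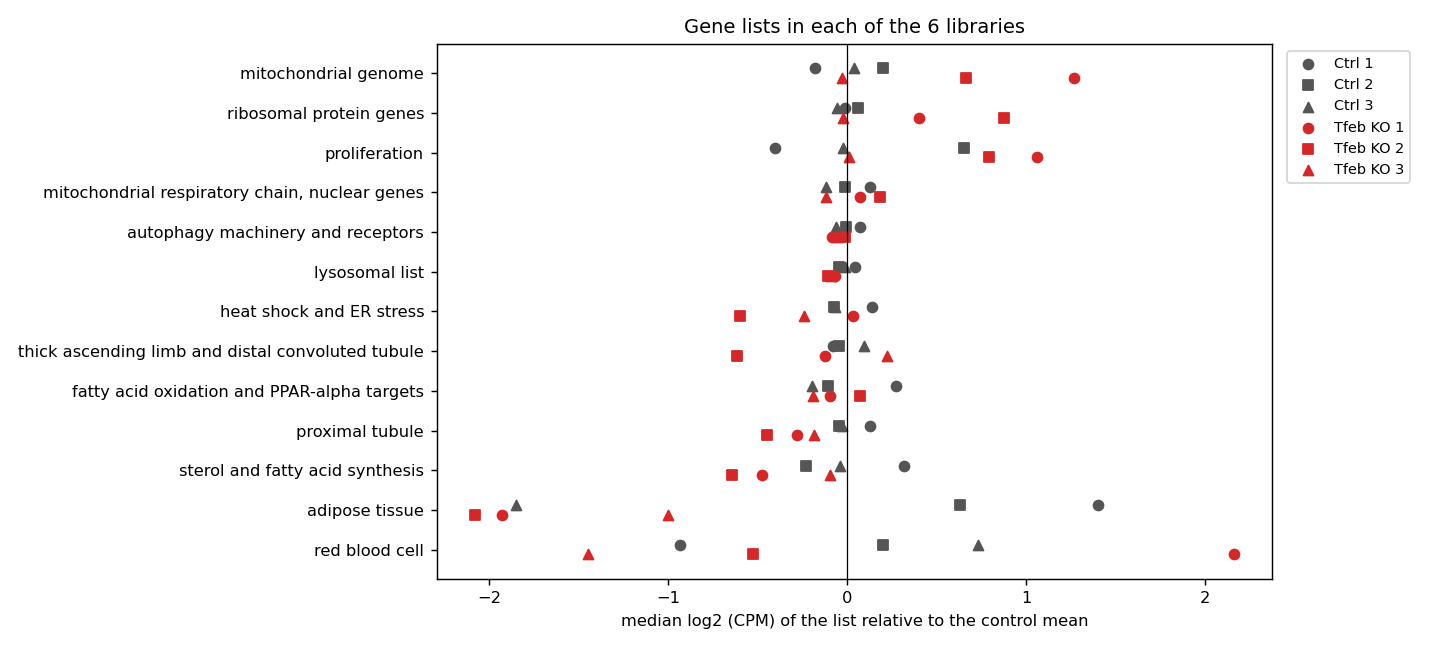
Median log2 CPM of 13 gene lists in each library, relative to the mean of the 3 controls. The mitochondrial genome and ribosomal protein genes stand out in Tfeb KO 1 and 2 but not in Tfeb KO 3, autophagy and lysosomal lists stay within 0.11 of zero, red cell markers scatter widely in both groups, and fat markers scatter in the controls and lie low in all 3 Tfeb KO libraries.

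Genes beside Tfeb on chromosome 17 did not stand apart. Of 25 tested genes within 1 Mb (megabase) of Tfeb, 2 had an unadjusted p under 0.05, both higher (8% against 8.56% of all genes). These were Oard1, at 27.5, 25.0 and 25.7 FPKM against 38.3, 43.8 and 24.6, and Ccnd3 (cyclin D3), at 14.6, 13.9 and 11.9 against 16.04, 18.8 and 14.6 (0.29, SE 0.13). Within 5 and 10 Mb the share was 8.99% of 89 and 9.09% of 154 genes. Around Tsc2 it was larger, with 22.5% of 71 genes within 1 Mb, 17.2% of 204 within 5 Mb and 14.5% of 338 within 10 Mb. Of the 16 genes within 1 Mb of Tsc2 that passed, 14 were higher in Tfeb KO. This window was chosen after seeing the data, and the chromosome as a whole had 12.3% of 791 genes.

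Loss of Tfeb where Tsc2 was also absent gave other values for the same genes. In untreated mice DKO against Tsc2 KO had 24 genes with an adjusted p of at most 0.05 (0.144% of 16631), with vehicle 3741 (22% of 17027) and with rapamycin 52 (0.305%), in each case without an FPKM minimum. The 96 lysosomal genes had a median of -0.21 (log2 fold change) in untreated mice, with 76 below zero against 48.5% of all genes and 0 called. With vehicle the median was -0.13, with 57 below zero against 49.4% of all genes and 25 called. With rapamycin it was -0.17, with 69 below zero against 50.7% of all genes and 1 called. The value for Tfeb loss alone was -0.10. Of the 6 single genes of the study compared here between DKO and Tsc2 KO, Gpnmb, Mthfd2, Rragc and Rragd passed an adjusted p of 0.05 with vehicle, none passed without treatment or with rapamycin, and Lamtor1 (-0.26 with vehicle, edgeR adjusted p = 0.27) and Flcn (-0.29, adjusted p = 0.106) passed in none of the 3. Gpnmb had -1.46 in untreated mice (adjusted p = 0.308, edgeR), -4.77 with vehicle (adjusted p = 0.000294) and -1.998 with rapamycin (adjusted p = 0.589), beside 0.00 in Tfeb KO, where it was near zero to begin with. Mthfd2 had -0.51, -1.21 and 0.24 in the same order, beside 0.34 in Tfeb KO. Rragc had -0.31, -0.68 and -0.25, beside 0.00 in Tfeb KO. Rragd had -0.57, -0.73 and -0.93, beside -0.21 in Tfeb KO. The edgeR adjusted p of these 3 genes was 0.000219, 0.00226 and 0.0129 with vehicle, 0.381, 0.247 and 0.213 without treatment and 0.707, 0.563 and 0.0607 with rapamycin. The proliferation list had a median of -0.80 in untreated mice, -2.57 with vehicle (12 of 12 called) and -0.02 with rapamycin, beside 0.73 for Tfeb loss alone.

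The difference between the Tfeb effect with and without Tsc2 was tested within the untreated mice. edgeR called 0 of 16631 genes, with 1630 at an unadjusted p under 0.05 (9.8%), and DESeq2 called 85 that reached 5 FPKM in a group. For the 96 lysosomal genes the difference had a median of -0.08 and 60 were below zero, against 47.9% of all genes. None was called by edgeR, and DESeq2 called Cd63 (-0.867, adjusted p = 0.0422). For Tfec it was -0.75, for Mthfd2 -0.86, for Rragd -0.36 and for Rragc -0.31, with edgeR adjusted p-values of 0.457 to 0.666. The 12 proliferation genes all had a negative difference (median -1.51), as did the 13 mitochondrial genes (median -0.49). edgeR called 0 of either list, and DESeq2, without an FPKM minimum, gave Aurkb an adjusted p of 0.00844 (-3.33).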

How the data were processed

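Poly-A RNA of 3 Tfeb KO and 3 control kidneys was sequenced from non-directional libraries by a company. For each cohort the authors deposited counts, whole numbers of reads on 54532 genes without normalization, and FPKM, for which the authors divided by gene length and a measure of library size other than the count total. The submitters' processing notes list STAR 2.6.1d, HISAT2 2.0.5, featureCounts 1.5.0-p3, DESeq2 1.20.0 and mm10, without roles. All 6 libraries (14926050 to 18499062 reads) were used, and 0 columns were left unmapped. Tables of the CaggCreERT2 mice were not used here.

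Counts were analysed with edgeR 4.0.16 in R 4.3.3. The 12 untreated KspCre libraries were fitted together (filterByExpr, TMM, glmQLFit, glmQLFTest, no covariate), and the drug cohort in a fit of its own. Adjusted p-values follow Benjamini and Hochberg, across every gene that was tested. The code was tested on simulated data. Fitted values are log2 fold changes, and list levels per library use log2 CPM with a prior count of 2. Without strand information, reads of overlapping genes cannot be told apart. The p-values of the fits weigh a difference between groups against the spread between libraries, estimated over all libraries of the fit.

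Named genes are the MiT/TFE family with 7 further genes of the study, the 12 higher and 12 lower genes with the lowest p among those without overlap and at 5 FPKM or more, up to 4 per list, up to 10 called by DESeq2, and genes within 1 Mb of Tfeb. Others were chosen after their values were seen, and a few genes are not reported here. The members and lists were chosen with earlier results of these data known. Alternatives were DESeq2 1.42.0 (4 or 2 groups), edgeR with 2 groups, RLE, no filter, other FPKM minimums, the replicate number as a block and each library left out. An offset for gene length, library sizes without the mitochondrial genome and the lysosomal list without chromosome 17 were added after seeing the data.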

Additional observations from a re-analysis of the deposited data

How the results depend on the processing

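With 3 libraries per group the spread between libraries limits these results, and differences between animals cannot be told apart from those of library or RNA quality. Calls depended on the tool and on control 2. At the study's thresholds 0 genes were called higher and 0 lower by edgeR, 1 and 3 without the filter on low counts, 1 and 6 by DESeq2 with 4 groups, 2 and 1 by DESeq2 with only the 2 groups, and 0 to 1 and 0 to 5 when 1 library was left out, the highest without control 2. The 1424 genes at an unadjusted p under 0.05 became 858 by edgeR and 931 by DESeq2 with only the 2 groups, 841 with a mean of 5 FPKM in a group, 651 with 5 FPKM in all 6 libraries, and 638 to 3278 when 1 library was left out (832 without control 1, 638 without Tfeb KO 2, 3278 without Tfeb KO 3). The difference between the Tfeb effects with and without Tsc2 had 0 calls, 4 without the filter, 85 by DESeq2, 1 with the gene length offset and 0 to 4 when 1 library was left out (4 without control 2, 1 without Tfeb KO 1). The causes were not tested.

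The log2 fold change of Tfeb and the lysosomal median (-0.126 to -0.0823) kept their direction in all alternatives run. Many of the 129 named genes were picked by a low p or by groups without overlap in these same libraries. That choice favours a kept sign, so the tally is not evidence of stability. Of the 129, 122 kept their sign. Those that did not were near zero or rested on 1 library. Mitf was 0.0158 with the gene length offset and -0.21 to 0.1 when 1 library was left out. Gpnmb was -0.0127 without the filter, -0.0242 by DESeq2 with 4 groups and -0.271 to 0.296 with 1 library left out. Rragc was -0.0168 without the filter, -0.00652 by DESeq2 with 2 groups, -0.0241 with the length offset and -0.0339 to 0.0626 with 1 library left out. Leaving out 1 library gave -0.0132 to 0.136 for Tfe3, -0.00424 to 0.177 for Lamtor1, -0.0316 to 0.615 for Napsa and -0.835 to 4.36 for Slc7a13. Deviations of log2 CPM from the group mean were correlated between control and Tfeb KO libraries. The correlation was -0.293, 0.0568 and -0.0923 for libraries of the same number and -0.214 to 0.329 for the other pairs. With 3 libraries per group these values cannot decide whether the numbers pair them. With the replicate number as a block 0 genes were called higher and 0 lower, and 1384 had an unadjusted p under 0.05.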
